A study of Mus musculus with 66 samples.

Results

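The troponin genes of the mouse were followed in C2C12 myoblasts, an immortalised line of muscle precursor cells, as they grew and after they were made to differentiate. The members were taken by name from the mRNA-Seq table. They are Tnnc1 and Tnnc2 for troponin C, Tnni1, Tnni2 and Tnni3 for troponin I, and Tnnt1, Tnnt2 and Tnnt3 for troponin T, which makes 8 of the 22489 genes listed. All 8 were above 0 in every library, and all 8 passed the filter on low values (a mean of at least 1 FPKM), as did 10954 genes in all. Tnni3 passed it only through its levels in differentiated cells. FPKM stands for fragments per kilobase of transcript and mapped fragments of the library, so that levels can be compared between genes of different length. The table holds 20 libraries from 10 lines, with 1 library of growing and 1 of differentiated cells for each line. WT is C2C12 without a transgene. The other 9 lines express a histone H3 with GFP fused to its N terminus from a transposon vector that is switched on by doxycycline (Tet-On), and were selected with doxycycline and G418. Of these, 3 lines carry H3.1, H3.2 or H3t (H3.1/H3.2-type) and 6 carry H3.3, H3mm7, H3mm11, H3mm12, H3mm13 or H3mm16 (H3.3-type). The columns spelled H3mmT in the table were read as the H3t line, the only line left without a column. Growing cells were kept in 20% fetal bovine serum and harvested before confluence, and differentiated cells were harvested 48 h after confluent cultures were moved to 2% horse serum. Each line was measured once in each state, so the p-values below measure the spread between lines, each of which but WT carries another transgene, and not between cultures of 1 line.

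Troponin is the calcium switch of the striated muscle thin filament. Troponin C binds calcium, troponin I holds back the interaction of actin with myosin, and troponin T anchors the complex to tropomyosin. Separate genes serve different muscles. Tnnc2, Tnni2 and Tnnt3 encode the forms of fast skeletal fibres, Tnni1 and Tnnt1 those of slow fibres, and Tnni3 and Tnnt2 those of the heart, while Tnnc1 serves both slow fibres and heart. The cardiac form of troponin T and the slow form of troponin I are also made in the developing embryo, outside the muscle for which each is named.

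In the mm9 genome, 6 of the genes lie in pairs of 1 troponin I and 1 troponin T gene. Tnni1 (chr1:137679642-137707566, plus strand) and Tnnt2 (chr1:137737452-137748837, plus strand) are 29.9 kb apart with Lad1 between them. Tnni2 (chr7:149627713-149630315, plus strand) and Tnnt3 (chr7:149684741-149701914, plus strand) are 54.4 kb apart with Lsp1 between them. Tnni3 (chr7:4469907-4475831, minus strand) and Tnnt1 (chr7:4456172-4467984, minus strand) are 1.92 kb apart with no gene between them. Each pair thus joins a fast gene to a fast gene, or a slow gene to a cardiac one. Tnnc1 (chr14:32021498-32024915, plus strand) and Tnnc2 (chr2:164602661-164605467, minus strand) stand alone. No stretch of 31 bases was shared between the annotated coding transcripts of any 2 members (28 pairs), so reads of that length cannot come from more than 1 of them. Tnnc2 is the exception in another respect. Of its 800 exonic bases, 592 (74%) are also exonic in Ube2c, which encodes an enzyme of mitotic protein degradation and runs on the opposite strand. Without strand information, reads from this stretch cannot be told apart, and the strand setting is not given in the sources used here. Ube2c lay between 121 and 313 FPKM in growing cells, where Tnnc2 was between 0.57 and 8.33 FPKM. It then fell in 10 of 10 lines (−4.04 on the log2 scale, limma adjusted p = 2.38e-10), opposite to Tnnc2. Tnni3 shares 86 of its exonic bases with 6030429G01Rik on the same strand, and the other members share no exonic base with another gene.

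Promoter sequences (RefSeq, GRCm38.p6, 250 bases before to 50 after the start) were available for 6 of the genes, with 8 starts in all, and each matched the mm9 genome at exactly 1 place. Tnni2 and Tnnt3 had no entry. Because the members moved together, these windows were searched on both strands for the E-box CAGCTG, to which the muscle factors of the MyoD family bind, the MCAT core CATTCC, to which TEAD factors bind, and for the MEF2 site and the CArG box. The E-box was in 3 of the 8 windows, against 16.3% of 32851 mouse promoter windows of that length. These were windows of Tnni1 and Tnnt2, which are 2 of 6 genes, and those of Tnni1 overlap and hold the same site. The MCAT core was in 2 of the 8 windows, from Tnnt2 and Tnnc1 (again 2 of 6 genes), against 14.7% of all windows. None of the 8 windows held a MEF2 site (3.19% of all) or a CArG box (1.63% of all). The RefSeq starts of Tnnt2 lie upstream of the GENCODE M1 record whose limits are given above. The windows of Tnni1, Tnni3 and Tnnt1 lie wholly inside the GENCODE M1 records of these genes, and so does the Tnni1 E-box. The annotations thus differ on where these genes begin, and the gaps given above hold for GENCODE M1. The matches are given 5′ to 3′ on the strand of the gene, each as 30 bases with the motif in capitals and with mm9 coordinates. The last one reads CATTCC on the other strand.
Tnni1 E-box, 68 bases before the first start, chr1:137695918-137695947, plus strand: gggaaggaggggCAGCTGgaggggcagcgg
Tnnt2 E-box, 223 bases before the first start, chr1:137732676-137732705, plus strand: tctcaagagggaCAGCTGgtttatgttaca
Tnnt2 E-box, 157 bases before the first start, chr1:137732742-137732771, plus strand: gctttatctgagCAGCTGgaggaccacatg
Tnnt2 MCAT core, 27 bases before the first start, chr1:137732872-137732901, plus strand: tctcctgctgcaCATTCCtccctccgcggg
Tnnc1 MCAT core, 58 bases before the start, chr14:32021428-32021457, plus strand: tgggctgggctgGGAATGtagcaggaggtg

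The WT libraries stand apart from the other 18. Gapdh was at 0.361 FPKM in growing and 0.263 FPKM in differentiated WT cells but between 783 and 2094 FPKM in the GFP-H3 lines, and the FPKM values of WT summed to 409319 and 465247 against 583613 to 894105 in the other lines. Results are therefore also given without WT. Read numbers are unknown, so no counting error could be put on a single FPKM value. The labelled cell type was checked against markers. Desmin (Des) was at 165 FPKM or above in every library. Myog, the factor that drives the last steps of muscle differentiation, was between 0.106 and 23.1 FPKM in growing and between 329 and 1151 FPKM in differentiated cells. Of the heart muscle markers, Myh6, Myl7 and Nppa were each at or below 2.48 FPKM everywhere and were not tested, while Gata4 (7.04 to 15.1 FPKM) and Nkx2-5 (2.01 to 32.6 FPKM) were present in all libraries and were not called between states. Nkx2-5 was lower after differentiation (−0.87, limma adjusted p = 0.0272), under the fold needed for a call, and was not higher in any line. The summed FPKM of the 5 heart muscle markers was 15.9 to 47.0 in growing and 12.5 to 28.7 in differentiated libraries. Of the 6 smooth muscle markers, Acta2, which skeletal myoblasts also make, was called higher (1.19) and Cnn1 lower (−2.04), with a summed level of 558 to 1575 FPKM in growth and 765 to 3286 FPKM after differentiation. Smtn (13.3 to 39.5 FPKM), Tagln (35.2 to 338 FPKM) and Lmod1 (0.136 to 7.51 FPKM) were not called. Tagln was lower (−0.83, limma adjusted p = 0.0348) and Lmod1 higher (0.84, limma adjusted p = 0.0165), both under the fold needed for a call. Myh11 stayed at or below 0.379 FPKM and was not tested. The part of these cell types in the results was not tested. Of the 4 adipocyte markers none was called, and Adipoq and Plin1 were at or below 0.11 FPKM. Pparg was present in all libraries, at 14.4 to 29.8 FPKM in growing and 6.77 to 17.5 FPKM in differentiated cells. Fabp4 was at 0.679 to 4.96 FPKM in growing and at most 1.72 FPKM in differentiated cells. Both were lower after differentiation (Pparg −0.72, limma adjusted p = 4.34e-04, and Fabp4 −0.89, limma adjusted p = 0.00258). These differences are under the fold needed for a call, and neither gene was higher in any line. None of the 4 osteoblast markers reached the filter.

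Growing myoblasts held few troponin transcripts, and those of Tnnt2 and Tnnc1 were the most abundant. Tnnt2 had a lowest, median and highest level of 19.2, 38.7 and 56.1 FPKM over the 10 lines, and Tnnc1 had 6.32, 12.6 and 30.9 FPKM. Tnnt1 followed with 1.62, 5.89 and 31.4 FPKM. The fast genes were lower: Tnnc2 had 0.57, 2.997 and 8.33 FPKM, Tnni2 had 0.0856, 1.94 and 7.32 FPKM, and Tnnt3 had 0.189, 1.88 and 11.97 FPKM. Tnni1 (0.502, 0.974 and 4.16 FPKM) and Tnni3 (0.0942, 0.297 and 2.30 FPKM) were lowest. The cardiac form of troponin T was the most abundant of that subunit in 9 of 10 lines (Tnnt1 passed it in H3mm7), at a level that varied 2.91-fold between lines, the narrowest range of the 8 genes, whereas Tnni2 varied 85.5-fold. Down this order Tnnt2 was above Tnnc1, Tnnt1 above Tnnc2 and Tnnc2 above Tnni2 in all 10 lines, and Tnnc1 was above Tnnt1 in 9 (not H3mm7). Neighbours in the middle changed places between lines. Tnni2 was above Tnnt3 in 4 of 10 lines (mean log2 ratio −0.19 ± 0.56 SD), and Tnnt3 was above Tnni1 in 6 of 10 (0.44 ± 1.09). Tnni1 was above Tnni3 in 9 of 10 lines, all but H3mm12.

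In differentiated cells, 7 of the 8 genes reached at least 116 FPKM in every line and Tnni3 did not. Tnnc1 was highest, with a lowest, median and highest level of 858, 2479 and 5935 FPKM. Tnnc2 had 310, 1015 and 4882 FPKM, with the highest value in WT. Tnnt2 had 426, 809 and 3187 FPKM. Tnni2 (262, 704 and 1825 FPKM) and Tnnt3 (272, 619 and 1604 FPKM), the fast neighbours on chromosome 7, were close to each other. Tnni1 had 180, 560 and 1179 FPKM and Tnnt1 had 116, 309 and 1070 FPKM. Tnni3 had 1.46, 4.23 and 33.4 FPKM. Only the ends of this order were the same in all 10 lines: Tnnc1 was above Tnnc2, and Tnnt1 was above Tnni3 by 5.90 ± 1.09 (SD) on the log2 scale. Neighbours between these ends changed places from line to line. Tnnc2 was above Tnnt2 in 6 of 10 lines (mean log2 ratio 0.19 ± 0.62 SD) and Tnnt2 above Tnni2 in 8 (0.33 ± 0.40). Tnni2 was above Tnnt3 in 7 (0.18 ± 0.21), Tnnt3 above Tnni1 in 8 (0.44 ± 0.63) and Tnni1 above Tnnt1 in 8 (0.58 ± 0.81). These ratios were not tested. The 8 genes together made up a median of 0.0112% of all FPKM in growing and 0.93% in differentiated libraries, with a highest share of 3.46% in differentiated WT.

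**Figure D1:**
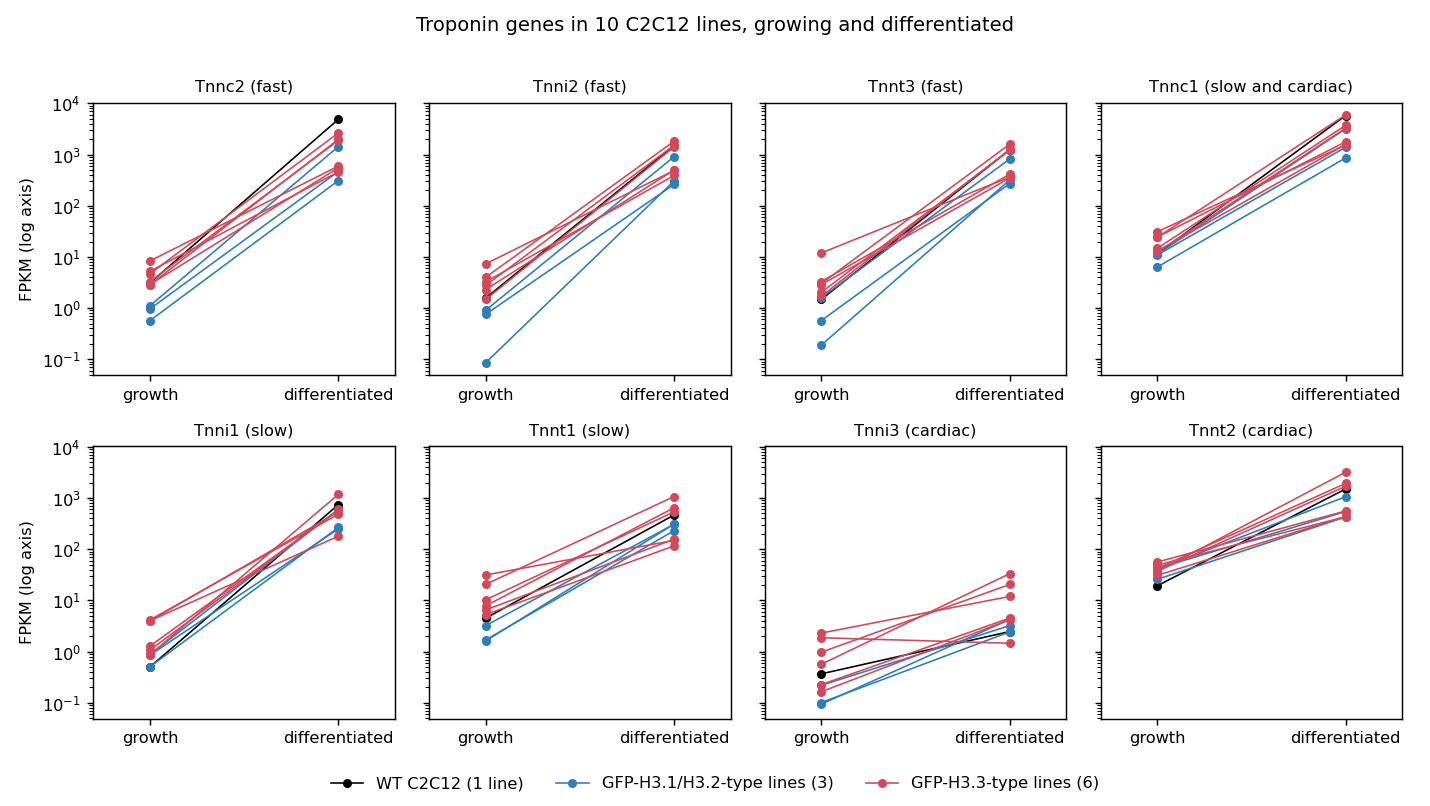
FPKM (log axis) of the 8 troponin genes in growing and differentiated cells, with 1 joined pair of points for each of the 10 lines, in black for WT, red for the 6 H3.3-type and blue for the 3 H3.1/H3.2-type lines. In 7 panels every differentiated point lies above every growth point; in the Tnni3 panel the groups overlap and the H3mm7 line slopes down from 1.86 to 1.46 FPKM.

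All 8 genes were higher after differentiation, with fast and slow genes alike among the largest changes of the whole table. The test was limma on log2(FPKM + 1) over 10 growth and 10 differentiated libraries. A gene was called at an adjusted p (Benjamini-Hochberg over the 10954 genes) under 0.05 where its log2 difference was also 1 or more. Of the genes tested, 8.87% were called higher (972) and 8.41% lower (921), and the median difference of all genes was 0.04. The groups did not overlap for 7 of the 8 members, with all differentiated above all growth libraries, as for 8.85% of the genes tested. Because 1 is added to each FPKM, differences of genes that were near 0 in growth are understated. In the 9 GFP-H3 lines without WT all 8 members were called as well, with differences from 2.19 (Tnni3) to 7.88 (Tnnc2).

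Among the fast genes, Tnnc2 rose by 8.12 ± 0.46 (SE, adjusted p = 5.09e-12), Tnni2 by 7.94 ± 0.40 (1.01e-12) and Tnnt3 by 7.69 ± 0.40 (1.84e-12) in limma. These ranked the third, the fifth and the seventh highest of all genes tested. On the FPKM scale the median line had 554 times as much Tnnc2, 501 times as much Tnni2 and 523 times as much Tnnt3 in differentiated as in growing cells. The ratios had wide ranges, from 30.4-fold (H3mm7) to 1695-fold (H3.1) for Tnnt3. H3mm7 had the smallest and H3.1 the largest ratio for both Tnni2 and Tnnt3, and these are also the lines with the highest and the lowest levels of both genes in growth.

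Among the slow genes, Tnni1 rose by 7.58 ± 0.32 (SE, limma adjusted p = 2.40e-13), Tnnc1 by 7.29 ± 0.34 (5.02e-13) and Tnnt1 by 5.42 ± 0.46 (2.50e-09). In the median line Tnni1 was 490-fold, Tnnc1 191-fold and Tnnt1 67.3-fold higher. Tnnt1 had a small ratio of 4.74 in H3mm7, where it was already at 31.4 FPKM in growth and reached 149 FPKM. Its largest ratio was 192, in H3.1. All 3 genes were higher in 10 of 10 lines.

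Among the cardiac genes, Tnnt2 rose by 4.61 ± 0.34 (SE, limma adjusted p = 2.51e-10), which was 21.4-fold in the median line, and was higher in 10 of 10 lines. Tnni3 rose by 2.10 ± 0.41 (adjusted p = 1.54e-04) and was higher in 9 of 10 lines. Its mean was 0.688 FPKM in growing and 8.84 FPKM in differentiated cells. Tnni3 thus passed the filter only through its differentiated levels, so its call leans towards a rise. With 0.1 in place of 1 added to FPKM, the difference of Tnni3 was 3.37. Its level went down in H3mm7, from 1.86 to 1.46 FPKM, and in 3 lines it passed the rest: H3mm16 (0.566 to 33.4 FPKM), H3mm13 (0.974 to 20.5 FPKM) and H3mm12 (2.30 to 11.96 FPKM). The other 7 differentiated lines lay between 1.46 and 4.52 FPKM, WT among them at 2.46 FPKM. Of the genes next to these pairs, Lad1 was at or below 0.333 FPKM in every library. Lsp1 went from a median of 32.5 to 69.5 FPKM, a difference of 0.96 (limma adjusted p = 2.30e-06) that is under the fold needed for a call.

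**Figure D2:**
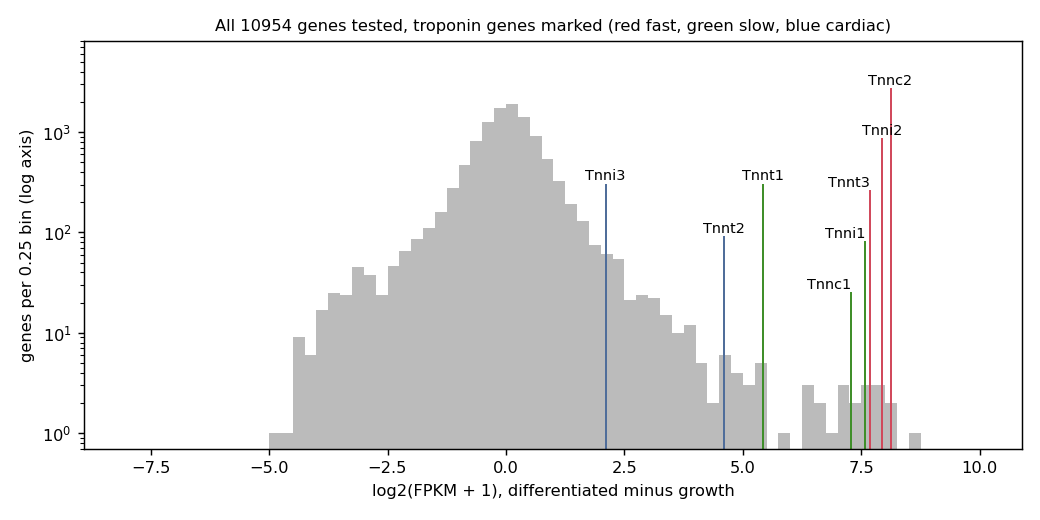
Histogram of the differentiated minus growth difference in log2(FPKM + 1) for the 10954 genes tested, in bins of 0.25 on a log count axis, with the 8 troponin genes marked by lines whose height has no meaning (red fast, green slow with Tnnc1, blue cardiac). Tnni3 at 2.10 lies at the shoulder of the distribution, Tnnt2 and Tnnt1 at 4.61 and 5.42, and the other 5 genes between 7.29 and 8.12 at its far right.

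To ask whether the isoforms of a subunit changed alike, the change of the slow gene was subtracted from that of the fast gene within each line (3 comparisons, exact two-sided sign-flip permutation test over 10 lines, whose smallest p is 0.00195). Tnnt3 gained more than Tnnt1 in 10 of 10 lines, by 2.27 ± 0.22 (SE) on the log2 scale (exact p = 0.00195, adjusted 0.00586). The smallest gap was 1.01 in H3t and the largest 3.09 in H3mm13. Tnnc2 gained more than Tnnc1 in 9 of 10 lines, by 0.83 ± 0.15 (exact p = 0.00391, adjusted 0.00586), with H3mm7 on the other side at −0.13. For Tnni2 and Tnni1 the difference was 0.36 ± 0.23 and was not called (exact p = 0.154, adjusted 0.154), with Tnni2 gaining more in 8 of 10 lines and H3mm7 as low as −0.89. Without H3mm7 this comparison passed (0.50, exact test, adjusted p = 0.0469). Set against the cardiac gene of the same subunit, the fast gene gained more in 10 of 10 lines. The difference was 5.84 ± 0.35 for Tnni2 against Tnni3 and 3.08 ± 0.28 for Tnnt3 against Tnnt2 (exact p = 0.00195 for each, adjusted 0.00195 over these 2).

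**Figure D3:**
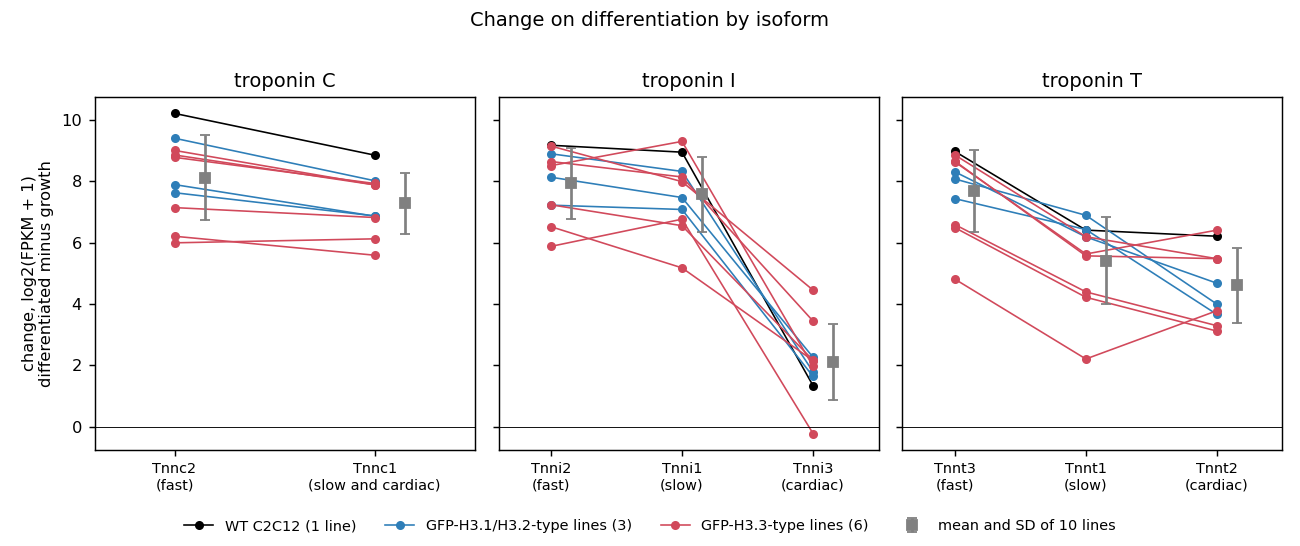
Change of each isoform (differentiated minus growth, log2(FPKM + 1)) in the 10 lines, grouped by subunit and joined by line (black WT, red H3.3-type, blue H3.1/H3.2-type), with the mean and SD of the 10 lines in grey. All lines fall from Tnnt3 to Tnnt1 and from Tnni2 to Tnni3, whereas between Tnni2 and Tnni1 the lines cross (8 fall and 2 climb).

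The make-up of each subunit moved with these changes. The shares below are of the summed FPKM of the isoforms of a subunit and are given as description. For troponin T, Tnnt3 went from a median of 4.38% (0.687 to 16.2%) to 35.9% (26.0 to 38.9%), with no overlap between the states. Tnnt2 went from a median of 82.3% to 48.2% and was the largest share in every differentiated line (40.3 to 54.4%). Its share was lower after differentiation in 9 of 10 lines, and in H3mm7 it went from 41.5% to a value 4.47 points higher. The share of Tnnt1 was at a median of 13.4% before and 15.1% after, and went up in 6 lines and down in 4.

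For troponin I, Tnni3 went from a median share of 14.0% (2.22 to 32.1%) to 0.465% (0.11 to 1.65%) while its level went up, and the states did not overlap. Tnni2 was at a median of 44.8% in growth and 60.3% in differentiated cells, with a larger share in 9 of 10 lines. Tnni1 stayed at a median of about the same size (41.2 and 39.4%), but its range narrowed from 12.1–73.8% to 27.5–52.4%. For troponin C, Tnnc1 was the larger part throughout. It had a median of 83.7% (74.5 to 91.8%) in growth and 71.3% (54.2 to 77.0%) in differentiated cells, where the lowest share was that of WT. The amounts of the subunits relative to each other are also given as description. Summed troponin T exceeded summed troponin I 10.8-fold in the median growing line (5.64 to 40.2) and 1.76-fold in the median differentiated line (0.908 to 2.03), while troponin C exceeded troponin I 4.80-fold (2.36 to 10.1) and 2.76-fold (2.03 to 4.76), ranges that overlap. Troponin C was at 0.329 times troponin T in the median growing line (0.25 to 0.578) and at 1.77 times in the median differentiated line (1.11 to 3.32), with WT at the upper end of both ranges.

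**Figure D4:**
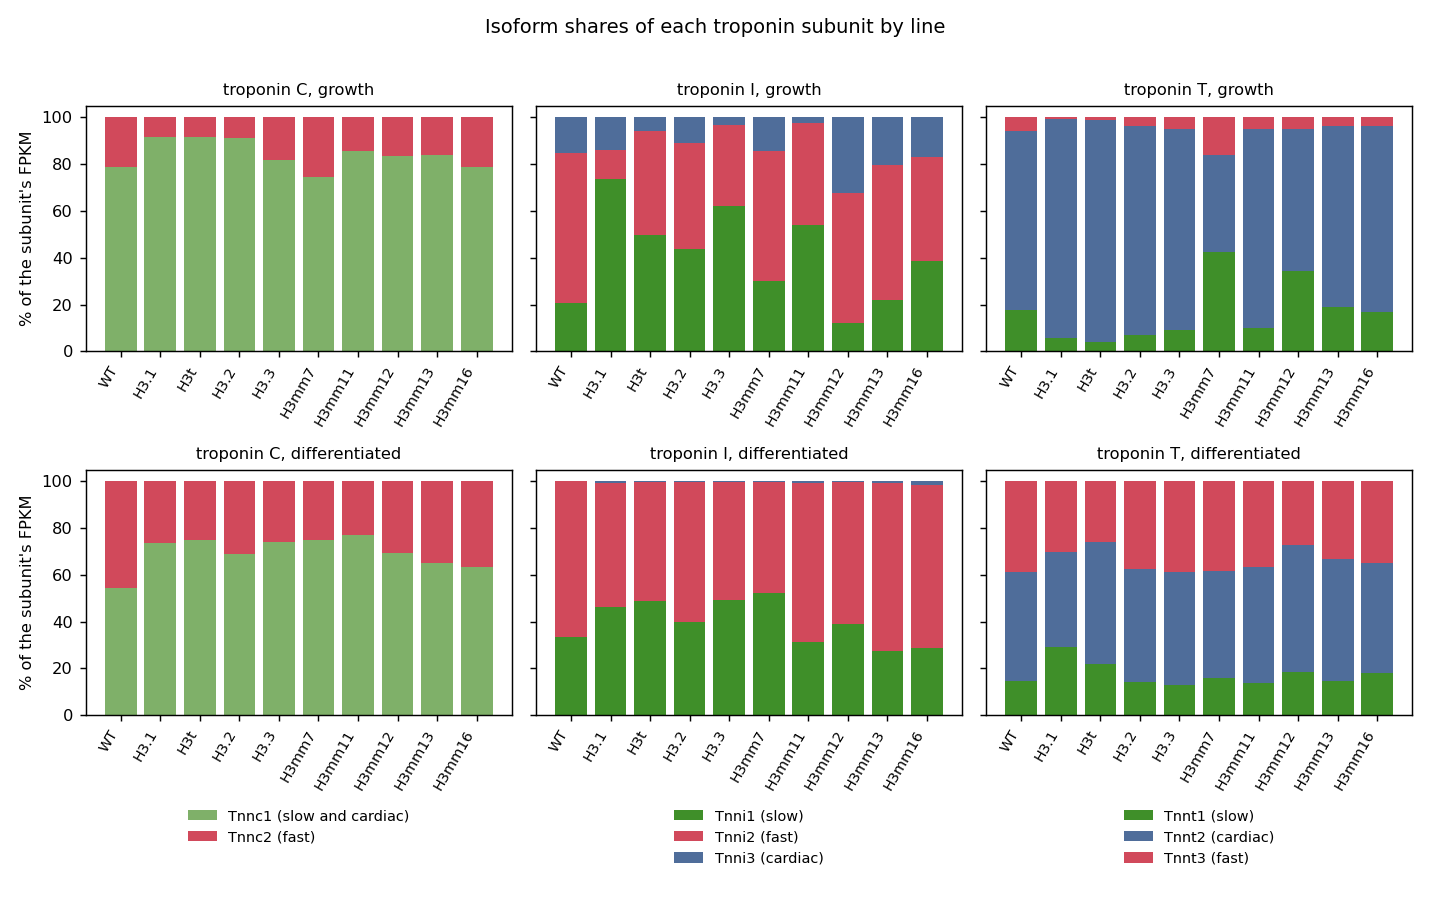
Stacked bars of the share (%) of each isoform in the summed FPKM of troponin C, I and T, for the 10 lines in growth (top) and after differentiation (bottom). The red fast share of troponin T widens from 0.687–16.2% to 26.0–38.9%, and the blue cardiac share of troponin I shrinks to at most 1.65%.

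Levels differed widely between lines, and mostly in the same lines for all 8 genes. In differentiated cells H3mm12 was the highest line for Tnnc1, Tnni1, Tnni2, Tnnt1, Tnnt2 and Tnnt3 and among the highest 3 lines for all 8 genes, at 2.10 to 3.94 times the median line. H3mm13 and H3mm16 were above the median for all 8 genes as well, and WT for 7. H3t, H3mm7 and H3mm11 were above the median for none, and H3.1 was the lowest line for Tnnc1, Tnnc2 and Tnnt2. Myog followed the same split of lines, with 657 to 1151 FPKM in H3mm12, H3mm13 and H3mm16, 1023 in WT and 930 in H3.2 against 329 to 513 FPKM in the other 5 lines. Its part in the troponin levels was not tested, and in these bulk libraries fewer differentiated cells and less RNA per cell cannot be told apart.

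In growing cells the order of lines was another. H3mm7 was among the highest 3 lines for 7 of the 8 genes, and highest for Tnnc2 (8.33 FPKM), Tnni2 (7.32 FPKM), Tnnt1 (31.4 FPKM) and Tnnt3 (11.97 FPKM). H3.1 was among the lowest 3 for all 8 genes. Myog was at 23.1 FPKM in H3mm7 and at 0.106 FPKM in H3.1, the highest and lowest of the 10, and Myod1, the factor that commits cells to the muscle lineage, was at 110 and 1.61 FPKM, also the extremes. Tnni1 had a pattern of its own, with 4.16, 3.97 and 3.99 FPKM in H3.3, H3mm7 and H3mm11 and at most 1.28 FPKM in the other 7 lines. After differentiation the same lines were the lowest 3 for Tnnt1, at 116, 149 and 157 FPKM. The study grouped these lines from the same libraries, so no test was made on the grouping.

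**Figure D5:**
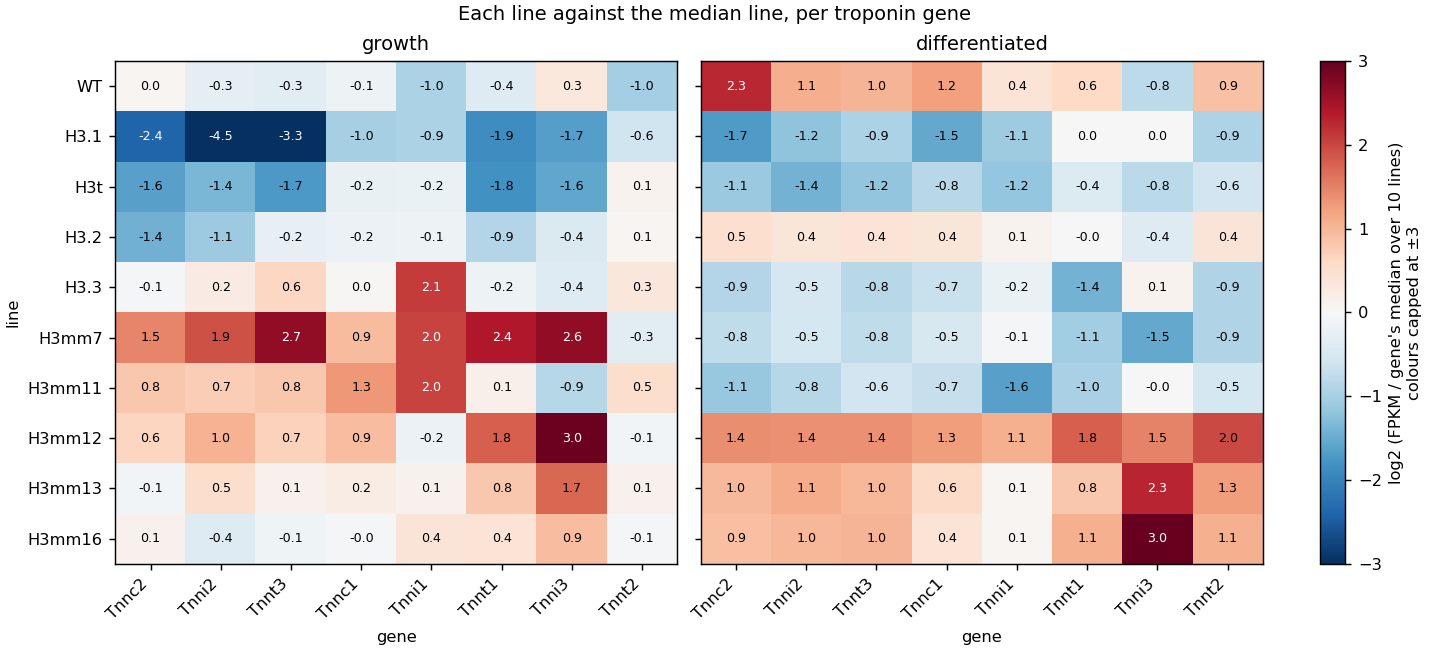
Level of each gene in each line as log2 of its FPKM over the median of the 10 lines, in growth (left) and after differentiation (right), with red above and blue below the median and colours capped at 3. In growth the H3.1 row is the bluest and the H3mm7 row the reddest; after differentiation the H3mm12, H3mm13 and H3mm16 rows are red for all 8 genes.

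Between the types of H3 carried by the lines, no troponin gene was called in either state. The comparison was of 6 H3.3-type with 3 H3.1/H3.2-type lines by limma over the 18 GFP-H3 libraries (10931 genes tested, WT not used). In growing cells 0.21% of the genes tested were called (23), and in differentiated cells 0.768% (84). The interaction of type and state called 0% of genes, although 999 had an unadjusted p under 0.05. With cell line as a block, in which libraries pair by line, the interaction called 55 genes and no member. Of the 8 members, 5 had an unadjusted p under 0.05 in growth, as had 1033 of the 10931 genes tested. In differentiated cells 0 members had one, against 2197 genes, and for the interaction 0 members.

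In growth those 5 genes, Tnnc1, Tnnc2, Tnni2, Tnnt1 and Tnnt3, were each higher in every H3.3-type than in every H3.1/H3.2-type line, which held for 5.95% of the genes tested. Tnnt1 was at 1.62, 1.69 and 3.22 FPKM in H3.1, H3t and H3.2 and between 5.28 and 31.4 FPKM in the H3.3-type lines (difference 1.98 ± 0.63 SE, limma adjusted p = 0.261). Tnnc2 was at 0.57, 0.968 and 1.11 FPKM against 2.85 to 8.33 FPKM (1.49 ± 0.55, limma adjusted p = 0.354). The fast neighbours followed, with Tnni2 at 0.0856, 0.756 and 0.906 against 1.48 to 7.32 FPKM (1.45 ± 0.51, limma adjusted p = 0.320). Tnnt3 was at 0.189, 0.572 and 1.59 against 1.71 to 11.97 FPKM (1.38 ± 0.56, limma adjusted p = 0.415), with H3.2 next to H3mm16 across a narrow gap. Tnnc1 was at 6.32, 10.9 and 11.3 against 12.4 to 30.9 FPKM (0.95 ± 0.45, limma adjusted p = 0.521). The remaining Tnni1, Tnni3 and Tnnt2 overlapped between the types, with differences of 0.89 ± 0.46, 0.71 ± 0.60 and 0.22 ± 0.53.

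Myog, which is not a member, was called between the types in growth. It was at 0.106, 1.19 and 3.21 FPKM in H3.1, H3t and H3.2 and between 7.35 and 23.1 FPKM in the H3.3-type lines (2.56 ± 0.45, limma adjusted p = 0.0245), and WT, with no transgene, was at 8.02 FPKM. Myod1 was at 1.61 to 25.1 against 26.7 to 110 FPKM (2.30 ± 0.61, limma adjusted p = 0.168). Their part in the troponin levels was not tested. Growing WT cells had 3.101 FPKM of Tnnc2, 1.58 of Tnni2, 4.49 of Tnnt1 and 11.5 of Tnnc1, each above the 3 H3.1/H3.2-type lines. For Tnnc1 the margin was narrow, with H3.2 at 11.3 FPKM. Tnnt3 was at 1.48 FPKM in growing WT cells, between H3t and H3.2. The WT libraries stand apart as described above, which limits the comparison of their FPKM with those of other lines.

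After differentiation the types overlapped for all 8 genes, and 3.16% of the genes tested lay higher in every H3.3-type line. H3.2 was well above H3.1 and H3t for most members, for example with Tnni2 at 910 FPKM against 305 and 262, and the H3.3-type lines ran from 391 to 1825 FPKM (difference 1.02 ± 0.51 SE, limma adjusted p = 0.275). For Tnni3 the H3.1/H3.2-type lines were at 4.26, 2.43 and 3.22 FPKM in H3.1, H3t and H3.2 and the H3.3-type lines between 1.46 and 33.4 FPKM (1.14 ± 0.60, limma adjusted p = 0.297). The other 6 differences were between 0.18 (Tnnt1, SE 0.63) and 0.85 (Tnnc2, SE 0.55), all with higher means in the H3.3-type lines. Some depend on single lines: Tnnt1 was at −0.17 without H3mm12 and −0.03 without H3mm16, Tnnc1 at 0.31 without H3.1 and 1.25 without H3.2, and Tnnc2 at 0.39 and 1.49 without the same 2 lines. Of the interactions the one of Tnnt1 was the largest at −1.80 ± 0.89 (limma adjusted p = 0.567), its difference between types being 1.98 in growth and 0.18 after differentiation.

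Most, but not all, of the thin filament partners of troponin that could be tested rose. Of 15 such genes, 13 were tested, 9 were called higher, 2 lower and 2 not (median difference 3.53, against 0.04 for all genes). Of all genes tested, 8.87% were called higher and 8.41% lower. Lmod2, Lmod3, Neb, Klhl40 and Klhl41 were under 1 FPKM in every growing library, and Tmod1 had a median of 0.291 FPKM there (at most 1.59 FPKM). They passed the filter only through their differentiated levels, so the count and the median lean towards a rise. Actc1, the cardiac actin that is also the early actin of skeletal muscle, rose by 8.55 from a median of 1.33 to 1125 FPKM, and skeletal actin Acta1 rose by 6.55. The genes called lower were the tropomyosins Tpm3 (−1.03) and Tpm4 (−1.64), which have forms outside striated muscle, while Tpm2 rose by 2.25 and Tpm1 had a difference of 0.65, not called.

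The genes that release and take up the calcium to which troponin C responds were called higher in 13 of 14 tested out of 17, with none lower and a median of 3.65. The share called higher among all genes tested was 8.87%. Cacna1s, Ryr1, Trdn, Casq1, Casq2 and Hrc were under 1 FPKM in every growing library. They passed the filter only through their differentiated levels, so the count and the median lean towards a rise. The calcium-storing Casq2 rose by 6.59 and the calcium pump Atp2a1 by 5.49, the release channel Ryr1 by 3.75 and the voltage sensor Cacna1s by 4.12. The buffer Pvalb had a difference of 0.83 and was not called.

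Fibre type genes were called higher on both sides. The share called higher among all genes tested was 8.87%, and 8.41% were called lower. Of 11 fast fibre genes 7 were tested and 6 called higher (median 3.99), led by the light chains Mylpf (8.21, to a median of 3473 FPKM) and Myl1 (7.16). The adult fast myosin heavy chains stayed low, with Myh1 called higher (1.25) at a median of 0.478 FPKM, the highest being WT at 30.4 FPKM, and Myh2 and Myh4 not tested. Of 9 slow fibre genes 7 were tested, with 6 called higher and Tpm3 lower (median 1.95). Myh1 and Casq1 of the fast list and Myh7, Myl2, Casq2, Myoz2 and Mybpc1 of the slow list were under 1 FPKM in every growing library. These too passed the filter only through their differentiated levels. Slow myosin Myh7 was at a median of 1.61 FPKM and the ventricular and slow light chain Myl2 at 4.35 FPKM in differentiated cells. Of the same list Myoz2 rose by 5.35, and Atp2a2 and Tpm3 were at a median of 83.3 and 289 FPKM already in growth. Atp2a1, Casq1 and Pvalb of the fast list and Atp2a2 and Casq2 of the slow list are also counted among the calcium genes, and Tpm3 among the thin filament genes.

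All 3 developmental sarcomere genes rose: embryonic myosin Myh3 by 7.26, Myl4 by 7.95 and perinatal Myh8 by 1.37. Myh3, Myh8 and the regulator Mef2c also passed the filter only through their differentiated levels. Of 11 heart genes 8 were under the filter and not tested. Of the 3 tested none was called higher, and Nppb was lower (−1.25, limma). Among the untested ones Myh6, Mybpc3 and Ryr2 were each at or below 2.48 FPKM in every library. Myh6 had a median of 0.323 FPKM and Mybpc3 of 0.0543 FPKM in differentiated cells, both above the growth level in 10 of 10 lines. The other untested heart genes did not share this. Nppa was above its growth level in 6 lines, Tbx5 in 4, Tnni3k in 3, Myl7 in 2 and Ryr2 in 1. Hand2 was at 0 FPKM in every library. Of 16 regulators, 13 were tested and 4 called higher, namely Myog (6.34), Mef2a (1.92), Tead4 (1.80) and Mef2c (1.42). For these 3 lists too, the shares over all genes tested were 8.87% called higher and 8.41% lower. Myod1 (0.79), Myf5 (−0.05) and Srf (−0.17) were not called.

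Across the 10 differentiated libraries the troponin genes also varied alike. Over 28 pairs of members, Pearson's r of log2(FPKM + 1) had a median of 0.825, from 0.329 for Tnni1 and Tnni3 to 0.982 for the neighbours Tnni2 and Tnnt3, and in growth the median was 0.676. These values describe 10 lines that share the WT library and the split of lines given above, and carry no test. Of all genes with a mean of at least 1 FPKM in these libraries, the 3 closest to Tnni2 were Tnnt3, C78339 (0.981) and the fast light chain Mylpf (0.979). For Tnnt3 the closest were C78339 (0.984) and Tnni2, and for Tnnc2 Casq2 (0.979), Ssx2ip (0.979) and Adck3 (0.978). The slow Tnni1 was closest to Tmem8c (0.940), Myoz2 (0.937) and Jsrp1 (0.936), and Tnnt1 to Atp5g3 (0.985), Tpm1 (0.974) and Sh3pxd2a (0.965). Tnnc1 was closest to Bcl6 (0.987), Tnnc2 (0.976) and Adck3 (0.970). The cardiac Tnnt2 was closest to Ndufa5 (0.972), Sik1 (0.972) and Atp1b3 (0.970), and Tnni3 to 2210408F21Rik (0.918), Ttc7b (0.915) and 4930455F23Rik (0.911).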

How the data were processed

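mRNA-Seq libraries were made from total RNA reverse-transcribed with oligo dT. The authors mapped reads to mm9 with TopHat2 2.0.8 and deposited FPKM values from Cuffdiff (Cufflinks 2.0.1). How WT was mapped, strand and read numbers are not given in the sources used here. The 20 columns were taken by name, with 1 library per line and state. Values were analysed as log2(FPKM + 1) with limma 3.58.1 (R 4.3.3; trend and robust settings), on genes with a mean of at least 1 FPKM, with calls at 0.05 after Benjamini-Hochberg adjustment where the log2 difference was 1 or more, and the fits were tested on simulated data. Isoform changes were compared by exact sign-flip permutation tests (Python 3.11.15). Growth and differentiated libraries pair by cell line: deviations from the state mean correlated more with the same line's (r 0.273 to 0.877) than with any other. Alternatives covered the pseudocount, filters, scaling, limma settings, cell line as a block, and leaving out lines. All 8 members are named, with the 3 genes most like each (1 of them is not reported here) and up to 4 or so per list. Members and lists were chosen with earlier results of these data known. Loci come from GENCODE M1 (mm9), and where a gene had 2 records the shorter was used. The 3′-seq tables hold histone genes only and, with ChIP-seq, were not used here.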

Additional observations from a re-analysis of the deposited data

Results flagged for a closer look

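One value lay apart from its group by Dixon's test at the 95% level, among 32 groups of 6 or 10 libraries examined (8 genes, 4 groups each), where chance alone flags about 1 group in 20. Tnnt3 in growing H3mm7 cells was at 11.97 FPKM, above the other 5 H3.3-type lines, which lay between 1.71 and 3.31 FPKM (gap over range 0.704, critical value 0.625). The same line was also highest in growth for Tnnc2, Tnni2 and Tnnt1 and had the highest Myog of the 10 lines.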

How the results depend on the processing

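All 8 troponin genes were called higher after differentiation under every alternative that tested them. When only genes averaging 5 FPKM or more were kept, Tnni3 was not tested and the other 7 were called. Exact sign-flip tests gave p = 0.00391 for Tnni3 and 0.00195 for the other 7. Cell line as a block changed no call of a member, here or between types. Between types 0 members were called under every alternative. The counts over all genes there depend on single lines: leaving out 1 line gave 2 (without H3.1) to 25 genes in growth against 23 with all lines, and moved the count over 1.5 times for each line but H3mm11 and H3mm12. In differentiated cells it gave 3 (without H3.1) to 293 (without H3.2) against 84, and for each line but H3mm7 moved the count over 1.5 times. With 0.1 added the counts were 51 and 134, without a filter 14 and 39, and with the filter at 5 FPKM 14 and 47. The interaction called 55 genes with the block, 2 without a filter and 1 under the stricter one, against 0, and no member.

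The fast minus slow differences kept their sign throughout. Leaving out 1 line at a time gave 0.77 to 0.94 for Tnnc2 against Tnnc1, 0.25 to 0.50 for Tnni2 against Tnni1 and 2.18 to 2.41 for Tnnt3 against Tnnt1. Only Tnni2 against Tnni1 changed its side of the threshold, without H3mm7 (0.50), and with Tnni3 as comparator (5.84), which is another contrast. In the 9 GFP-H3 lines alone the values were 0.77, 0.38 and 2.24. With 0.1 added they were 1.23, 0.32 and 2.70. Unknown read numbers limit the values under 1 FPKM most, which include Tnni3 and Tnni1 in growth. Tnnc2, Tnni2 and Tnnt3 were also under 1 FPKM in growing H3.1 and H3t cells, and Tnni2 in H3.2. The 1695-fold rise of Tnnt3 and the 85.5-fold range of Tnni2 in growth rest on such values in H3.1.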
